A study of Homo sapiens with 4 samples.

Results

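The ID proteins and the BMP signaling genes around them were examined in the core and in the invasion zone of MV3 melanoma spheroids. The group held 10 genes, ID1, ID2, ID3, ID4, BMP2, BMP4, BMP7, SMAD6, SMAD9 and BAMBI, and all 10 were found among the 56304 gene rows by their symbol. They were chosen by the counts of the core and invasion zone libraries, in which ID1 was higher in the invasion zone, so that the zone difference of these 10 genes is given as a description and supports no test. MV3 is an established, highly metastatic human melanoma line, and all libraries came from MV3 cells that stably carried the nuclear reporter H2B-GFP. The spheroids held 50000 cells each and were separated after 2 days in collagen I, on day 2 by the labels. A biopsy punch of 1 mm removed the core, and one of 3 mm the invasion zone around it. There were 2 libraries of each zone, numbered replicate 1 and 2, and the sources used here do not say how many spheroids went into a library. Per the study's own discussion, the cut was vertical, so that cells invading above or below the core can remain in the core sample.

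Bone morphogenetic proteins (BMPs) are secreted ligands that bring together type I and type II receptor kinases at the cell surface. The type I receptor phosphorylates SMAD1, SMAD5 or SMAD9, which enter the nucleus with SMAD4 and activate target genes. The ID genes are classical direct targets of this signal, and so are SMAD6 and SMAD7, the inhibitory SMADs, which feed back on the receptors. ID proteins have a helix-loop-helix domain but no DNA-binding region. They bind E proteins such as TCF3 and keep these factors from DNA, which holds back differentiation and favours proliferation. ID1 and ID3 are known in melanoma for their link to invasion and to resistance against targeted drugs. ID genes also respond to signals other than BMPs, serum among them.

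The promoters of ID1 and ID3 are shown because these genes had the largest zone differences of the members tested. The RefSeq table of GRCh38.p14, the assembly of the files, held a promoter for 8 of the 10 genes. BMP2 and BMP7 had no entry. For ID1 the sequence is that of chr20:31605039-31605282 on the plus strand, 244 bases that end just before the GENCODE start of the gene, and for ID3 that of chr1:23559502-23559751 on the minus strand, 250 bases up to the start. Capitals mark CAGAC, a SMAD-binding box, and TATAAA, the core of a TATA box, each on either strand. In ID1, the capitals join 2 overlapping matches to TATAAA, which lie on opposite strands and begin 33 and 31 bases before the RefSeq start.
ID1: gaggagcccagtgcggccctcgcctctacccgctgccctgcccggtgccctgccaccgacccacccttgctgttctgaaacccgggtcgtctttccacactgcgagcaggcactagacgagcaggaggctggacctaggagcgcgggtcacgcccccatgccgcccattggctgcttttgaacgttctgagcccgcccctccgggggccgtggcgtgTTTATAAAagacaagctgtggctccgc
ID3: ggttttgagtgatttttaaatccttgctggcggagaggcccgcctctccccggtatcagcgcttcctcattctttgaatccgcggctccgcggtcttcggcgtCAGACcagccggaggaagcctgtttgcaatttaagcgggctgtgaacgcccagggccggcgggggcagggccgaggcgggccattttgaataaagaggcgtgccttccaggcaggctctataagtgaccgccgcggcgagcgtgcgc

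The window of ID3 held 1 CAGAC, which begins 147 bases before the start, and that of ID1 held none. The window of ID4 also held 1 CAGAC, and that of ID2 none. GGCGCC, the GC-rich box bound by SMAD1 and SMAD5, occurred in none of the windows of ID1 to ID4, once in the first of the 3 BMP4 windows and 3 times in that of BAMBI. The cyclic AMP response element TGACGTCA occurred in no window of the members. Both strands were searched. Among the 35116 promoter windows of the same length, 16.4% held GGCGCC, 38.0% held CAGAC, 1.65% held TGACGTCA and 10.7% held TATAAA. An absent match says only that these letters are not in this window.

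The libraries of replicate 1 were deeper, with totals of 36363358 (core) and 37591782 counts (invasion zone), than those of replicate 2, with 14983135 and 11789243 counts. The values per gene below are normalized CPM, that is, counts scaled to a common library total with TMM factors. The label of the cells was checked against markers of the melanocytic lineage, and 2 of 8, TYR and SOX10, had 0 counts in every library while the 8 together reached 2.91 to 6.06 CPM. The 6 markers of dedifferentiated melanoma went different ways. AXL had 629 and 633 CPM in the core and 1121 and 1224 CPM in the invasion zone. WNT5A was lower there, with 180 and 81.3 CPM in the core libraries and 54.1 and 17.9 CPM in the invasion zone libraries. EGFR was higher in the invasion zone without overlap, SOX9 and NES overlapped between the zones, and NGFR had at most 2 counts in a library. In bulk RNA, fewer cells of a type and less RNA per cell cannot be told apart.

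ID1 and ID3 were higher in both invasion zone libraries than in both core libraries, by nearly the same fold. ID1 (ENSG00000125968, chromosome 20 of GRCh38, 31605283 to 31606515, plus strand) had 11.9 CPM in core replicate 1, 22.4 CPM in core replicate 2, 51.6 CPM in invasion zone replicate 1 and 76.2 CPM in invasion zone replicate 2. The zones did not overlap, and in each zone replicate 2 was the higher library. The core had a mean of 17.2 ± 7.44 CPM (SD, n = 2) and the invasion zone one of 63.9 ± 17.3 CPM. The fitted log2 fold change was 1.91 (standard error 0.36), or 3.75-fold. The log2 ratio of invasion zone over core was 2.12 between the replicate 1 libraries and 1.76 between the replicate 2 libraries.

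ID3 (ENSG00000117318, chromosome 1, 23557926 to 23559501, minus strand) had 59.0 and 129 CPM in core replicates 1 and 2 and 309 and 412 CPM in invasion zone replicates 1 and 2. Here too the zones did not overlap, and core replicate 2 lay nearer to the invasion zone than core replicate 1. The mean of the core was 93.8 ± 49.3 CPM (SD, n = 2) and that of the invasion zone 361 ± 72.4 CPM, with a fitted log2 fold change of 1.95 (standard error 0.40), or 3.85-fold. Within the replicates the log2 ratio was 2.39 and 1.68. By size of the log2 fold change, ID3 ranked 42 and ID1 ranked 47 from the top of the 15529 genes tested.

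ID2, which encodes the ID protein that binds the retinoblastoma protein as well, had a smaller difference. ID2 (ENSG00000115738, chromosome 2, 8678845 to 8684461, plus strand) had 3.13 and 2.98 CPM in the core libraries and 5.79 and 4.38 CPM in the invasion zone libraries. The zones did not overlap, but the gap between the nearest libraries was small, and the log2 fold change was 0.74 (standard error 0.30). Of its 2213 exonic bases, 145 are shared with ID2-AS1 on the opposite strand, and the counting is not stated to use strand, so that reads of the 2 genes cannot be told apart there. ID4 (chromosome 6, 19837370 to 19842197) had 6 counts in core replicate 2 and 0 counts in the other 3 libraries. A count of 0 allows up to 3 counts, which is 0.0825 CPM in core replicate 1, 0.0798 CPM in invasion zone replicate 1 and 0.254 CPM in invasion zone replicate 2. No reads of ID4 were therefore detected in the invasion zone at this depth, and its core level rests on 1 library.

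**Figure D1:**
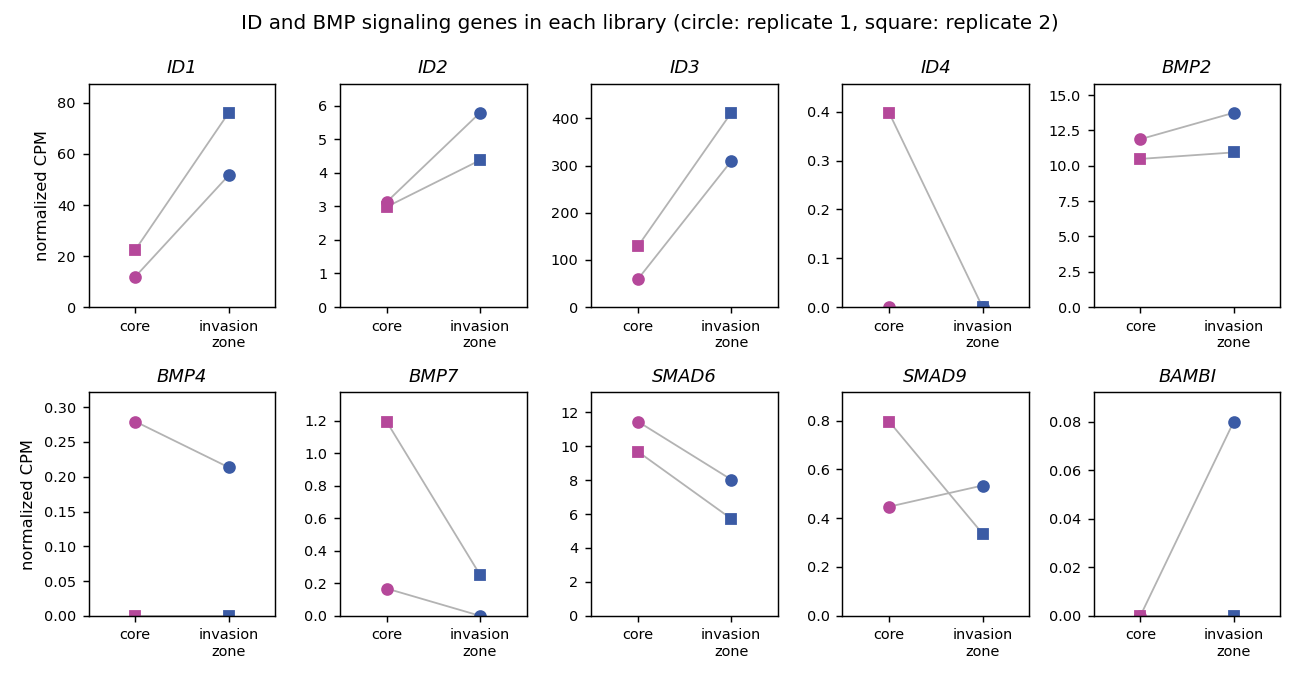
Normalized CPM of the 10 genes, with the core in purple and the invasion zone in blue, circles for replicate 1 and squares for replicate 2, and grey lines joining libraries of the same number, each panel with its own axis from 0. ID1 and ID3 lie 3.75-fold and 3.85-fold higher in the invasion zone, BMP2 overlaps between the zones, and ID4, BMP4, BMP7, SMAD9 and BAMBI stay near or below 1 CPM.

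The ratio between the ID genes within a library showed how far they moved together. For each count of ID1, the core libraries had 4.95 and 5.74 counts of ID3 and the invasion zone libraries had 5.99 and 5.41. This ratio overlapped between the zones, although the counts of ID1 to ID4 together ranged from 72.8 to 496 CPM, here without TMM scaling. ID3 held 79.7% to 84.3% of all ID counts and ID1 held 14.1% to 16.1% in every library. ID2 did not keep pace. For each count of ID2, the core libraries had 3.80 and 7.51 counts of ID1 and the invasion zone libraries had 8.92 and 17.4. ID2 held 4.23% and 1.93% of the ID counts in the core against 1.58% and 0.889% in the invasion zone. No test was run on these ratios, which share the counts that chose the members.

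**Figure D2:**
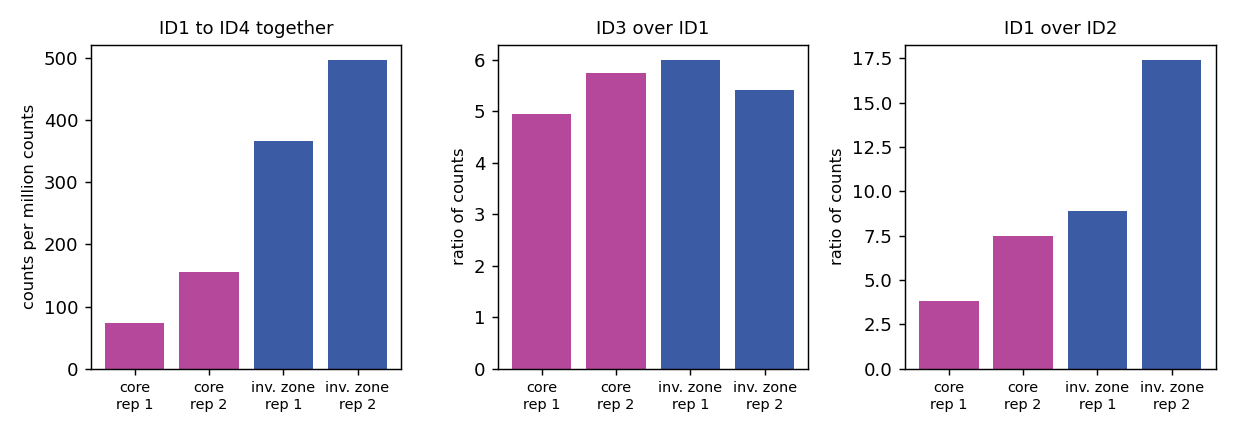
Summed CPM of ID1 to ID4 without TMM scaling (left), the ratio of ID3 to ID1 counts (middle) and the ratio of ID1 to ID2 counts (right) in each of the 4 libraries, core in purple and invasion zone in blue. The ID total spans 72.8 to 496 CPM, whereas the ratio of ID3 to ID1 stays between 4.95 and 5.99.

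Of the 3 BMP ligands among the members, BMP2 was clearly expressed and did not separate the zones. BMP2 (ENSG00000125845, chromosome 20, 6767686 to 6780246, plus strand), a ligand that signals through BMPR1A and BMPR2, had 11.9 and 10.5 CPM in the core libraries and 13.7 and 10.9 CPM in the invasion zone libraries. The zones overlapped, and the log2 fold change was 0.15 (standard error 0.22). BMP4 (chromosome 14, 53949736 to 53958761), a close relative of BMP2, had 10 counts in core replicate 1, 8 counts in invasion zone replicate 1 and 0 counts in both replicate 2 libraries. Its ratio of invasion zone over core, from the summed counts, was 0.832, and counting error alone gives it an exact 95% interval of 0.285 to 2.34. Of the 3096 exonic bases of BMP4, 506 are shared with ENSG00000287156 on the opposite strand. As for ID2, reads of both genes cannot be told apart there. BMP7 (chromosome 20, 57168753 to 57266641), a ligand of another BMP subgroup that uses ACVR1 as well, had 6 and 18 counts in the core libraries and 0 and 3 counts in the invasion zone libraries. The ratio of core over invasion zone was 7.69, with 2.34 to 39.9 as its interval of the same kind, but 18 of the 24 core counts came from core replicate 2. In CPM, core replicate 1 with 0.168 lay between the invasion zone libraries with 0 and 0.252, so that the zones overlapped.

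Among the intracellular and membrane regulators, SMAD6 differed in the opposite direction to ID1. SMAD6 (ENSG00000137834, chromosome 15, 66702236 to 66782849, plus strand), the inhibitory SMAD of the BMP branch, had 11.5 and 9.68 CPM in the core libraries and 8.03 and 5.72 CPM in the invasion zone libraries. The zones did not overlap, and the log2 fold change was -0.61 (standard error 0.27). SMAD9 (chromosome 13, 36844831 to 36920887), a SMAD that BMP receptors phosphorylate, had 16 and 12 counts in the core libraries and 20 and 4 counts in the invasion zone libraries. The zones overlapped, and the log2 ratio was 0.26 in replicate 1 and -1.24 in replicate 2. BAMBI (chromosome 10, 28677510 to 28682932), a decoy receptor without a kinase domain that dampens TGF-beta and BMP signals, had 3 counts in invasion zone replicate 1 and 0 counts in the other 3 libraries. A level of BAMBI was therefore not measurable in either zone.

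Levels were compared between genes per kilobase of exon, with the merged length of all exons annotated for a gene in GENCODE release 44. In the core, ID3 was highest with 62.7 ± 33.0 CPM per kb (SD, n = 2), followed by ID1 with 13.9 ± 6.03, BMP2 with 3.15 ± 0.278, ID2 with 1.38 ± 0.0463 and SMAD6 with 1.24 ± 0.147. ID2 and SMAD6 lay close together, with 1.41 and 1.35 CPM per kb for ID2 and 1.34 and 1.13 for SMAD6 in core replicates 1 and 2. Their order depends on the length used, since before scaling by length the core means were 3.06 CPM for ID2 and 10.6 CPM for SMAD6. In the invasion zone the order of these 5 genes was the same, with 241 ± 48.4 CPM per kb for ID3, 51.8 ± 14.1 for ID1, 3.48 ± 0.559 for BMP2, 2.30 ± 0.452 for ID2 and 0.804 ± 0.191 for SMAD6. The other 5 members had at most 0.220 CPM per kb in any library, and their order is not resolved at these counts. Ranks were taken among the 32453 genes with a length and at least 1 count over all libraries. In the invasion zone ID3 stood above 99.7% and ID1 above 97.3% of these genes, against 98.1% and 89.2% in the core.

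**Figure D3:**
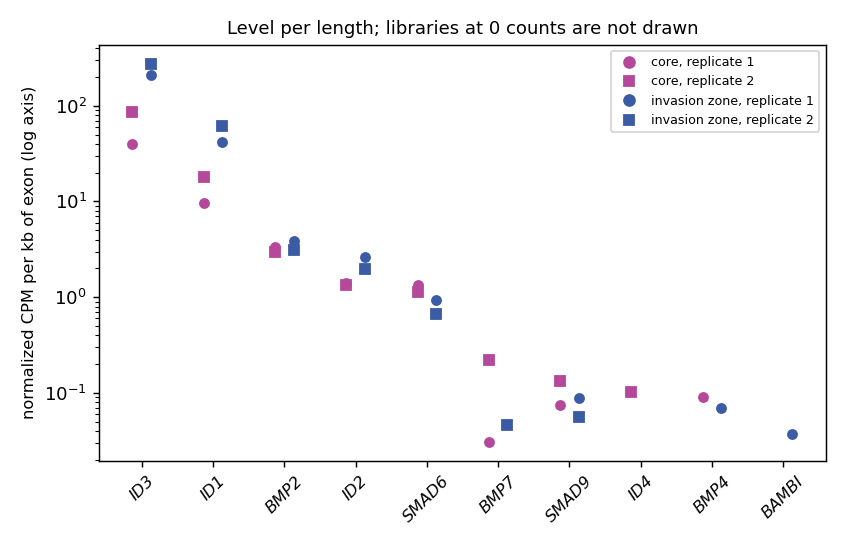
Level of each member in normalized CPM per kb of exon on a log axis, with circles for replicate 1, squares for replicate 2, purple for the core and blue for the invasion zone, and libraries at 0 counts left out. ID3 and ID1 stand above BMP2, ID2 and SMAD6, and the other 5 genes lie at or below 0.220 CPM per kb.

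The test of the zones ran over 15529 genes, of which 6 were members, namely ID1, ID2, ID3, BMP2, SMAD6 and SMAD9. The quasi-likelihood test of edgeR with Benjamini-Hochberg adjustment called 0 members, and it called 0% of all genes higher and 0% lower at an adjusted p under 0.05 with a 2-fold change. With p left unadjusted (under 0.05, and 2-fold as before), 2 of the 6 members, ID1 and ID3, were higher, where 2.92% of all genes tested were higher and 5.85% were lower. DESeq2, the package named in the study's methods, called ID1 and ID3 higher at an adjusted p under 0.05, and called 2.76% of the 12819 genes with an adjusted p higher and 4.27% lower. Limma voom called 0 genes. With the replicate number as a block, edgeR called ID1 and ID3 higher, and called 3.41% of all genes tested higher and 7.06% lower. The invasion zone libraries both exceeded the core libraries for 3 of the 6 members and were both under them for 1, against 28.1% and 30.3% of all genes tested. Because the same contrast chose the members, nothing is read from these counts.

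The rest of the pathway was followed with 84 further genes in 8 role groups, of which 54 passed the count filter and 11 had 0 counts in every library. Without a replicate term, edgeR called none of the 54 in either direction (adjusted p from 0.128 to 0.980). With the replicate number as a block it called 5 of them, FST and SMURF2 higher and CDKN2B, NBL1 and TGFBR3 lower. The same fit called 3.41% of all genes tested higher and 7.06% lower. The methods describe taking the invasion zone that belonged to each core, but neither they nor the labels say that a replicate number marks such a pair. With p left unadjusted and a 2-fold change, FST was higher and NBL1 and CDKN2B were lower, beside 2.92% and 5.85% of all genes tested. The median log2 fold change of the 54 was -0.19, against -0.01 for all genes tested. The invasion zone libraries both exceeded the core libraries for 9 of the 54 (16.7%) and were both under them for 27 (50.0%), against the 28.1% and 30.3% of all genes. A negative log2 fold change was found for 36 of the 54 (66.7%), against 50.7% of all genes tested, which is the share to set beside the counts of signs in the role groups that follow. No test was run on the list as a whole.

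Of 15 other ligands of the family, 4 passed the filter, and their median log2 fold change was 0.18. INHBA, which encodes the activin A subunit, had at most 15.3 CPM in any library and overlapped between the zones (log2 fold change 0.22, standard error 0.22). GDF11, a relative of myostatin, had 0.14, and BMP3, a BMP that opposes the others, had -0.40. None passed the edgeR threshold (smallest adjusted p = 0.513 over the 4 ligands).

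Among the 9 receptors and co-receptors tested, 7 had a negative log2 fold change, and the median was -0.32. ENG, the co-receptor endoglin, had 408 and 322 CPM in the core libraries and 284 and 196 CPM in the invasion zone libraries (log2 fold change -0.60, standard error 0.23). BMPR2, the main type II receptor for BMPs, had 130 and 128 CPM in the core libraries and 95.9 and 85.3 CPM in the invasion zone libraries (-0.51, standard error 0.14). TGFBR3, the co-receptor betaglycan, ranged from 107 to 192 CPM in the core and from 32.6 to 107 CPM in the invasion zone, with a log2 fold change of -1.09 (standard error 0.58). This value depended on single libraries, from -2.20 without invasion zone replicate 1 to -0.48 without invasion zone replicate 2. The zones overlapped in 2 receptors, ACVR2A and BMPR1B, named after their values were seen, with log2 fold changes of -0.03 and 0.32. They did not overlap in ACVR1, also named afterwards. ACVR1 had 104 and 71.2 CPM in the core libraries and 59.8 and 39.4 CPM in the invasion zone libraries (-0.82, standard error 0.28). None of these differences passed the adjusted threshold of edgeR without a replicate term (smallest adjusted p = 0.141 over the 9 receptors).

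The secreted antagonists went both ways, 5 of 9 higher and 4 lower by the sign of their log2 fold change. The 3 with the highest mean CPM were FSTL1, a follistatin-like glycoprotein, TWSG1, which forms a complex with chordin and BMPs, and CHRDL1, a chordin-like BMP binder, with log2 fold changes of 0.18, -0.14 and -0.40. FST and NBL1, named here after their values were seen, had the largest differences of either sign among the antagonists tested. FST encodes follistatin, which binds activins and some BMPs, and had 4.86 and 8.49 CPM in the core libraries and 15.7 and 18.6 CPM in the invasion zone libraries (log2 fold change 1.37, standard error 0.32, edgeR adjusted p = 0.133). NBL1 encodes a member of the DAN family of BMP antagonists and had 162 and 97.8 CPM in the core libraries and 61.5 and 31.2 CPM in the invasion zone libraries (-1.48, standard error 0.40, edgeR adjusted p = 0.138). In both genes the zones did not overlap, and DESeq2 called both. NOG, also named afterwards, encodes noggin, which blocks BMP ligands from their receptors, and had 1.37 to 2.03 CPM over the 4 libraries.

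All 6 of the other SMADs were tested, and 5 had a negative log2 fold change. SMAD2 and SMAD3 of the TGF-beta branch, and SMAD5 of the BMP branch, had the highest mean CPM, with log2 fold changes of -0.21, -0.21 and -0.06. SMAD7, the inhibitory SMAD of both branches and itself a target, is named after its values were seen. It had 47.9 and 38.4 CPM in the core libraries and 32.9 and 28.0 CPM in the invasion zone libraries, a log2 fold change of -0.50 (standard error 0.18, edgeR adjusted p = 0.185), which has the same sign as that of SMAD6. The 5 other BMP target genes tested had a median log2 fold change of -0.12, and MSX1 and ATOH8, homeobox and basic helix-loop-helix factors, had 0.05 and -0.12. RUNX2, the osteoblast factor, had 52.8 and 37.1 CPM in the core libraries and 33.4 and 20.8 CPM in the invasion zone libraries (-0.72, standard error 0.29).

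Among 12 intracellular regulators, SMURF2, FKBP1A and SKIL had the highest mean CPM, and 8 of the 12 had a negative log2 fold change. SMURF2, a ubiquitin ligase that targets SMADs and their receptors, had 136 and 178 CPM in the core libraries and 286 and 340 CPM in the invasion zone libraries, without overlap (log2 fold change 1.00, standard error 0.19, edgeR adjusted p = 0.128). DESeq2 called it higher. SMURF1, its relative and named after its values were seen, had a log2 fold change of 0.17. FKBP1A, which keeps type I receptors silent without ligand, had 0.14, and SKIL, a repressor of SMAD complexes, had -0.11.

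Partners and downstream genes of the ID proteins were read last. TCF3, the E protein gene that encodes E12 and E47, had 152 and 162 CPM in the core libraries and 191 and 195 CPM in the invasion zone libraries (log2 fold change 0.29, standard error 0.13, edgeR adjusted p = 0.240). TCF12 and TCF4, the other E protein genes, had log2 fold changes of -0.21 and -0.15. Of the 4 genes that ID proteins are known to hold back, all 4 had a negative log2 fold change. In 2 of them, CDKN1A and THBS1, the zones overlapped. CDKN2B, which encodes the cell cycle inhibitor p15 and was named after its values were seen, had 40.9 and 41.8 CPM in the core libraries and 17.5 and 10.2 CPM in the invasion zone libraries, without overlap (-1.56, standard error 0.28, edgeR adjusted p = 0.128), and DESeq2 called it lower. CDKN2A, which encodes p16, and CDKN1A, which encodes p21, had log2 fold changes of -0.31 and -0.01, the latter with a standard error of 0.22 and a sign that turned under 5 alternatives, and THBS1, the gene of thrombospondin-1, had -0.66 with a standard error of 0.46.

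**Figure D4:**
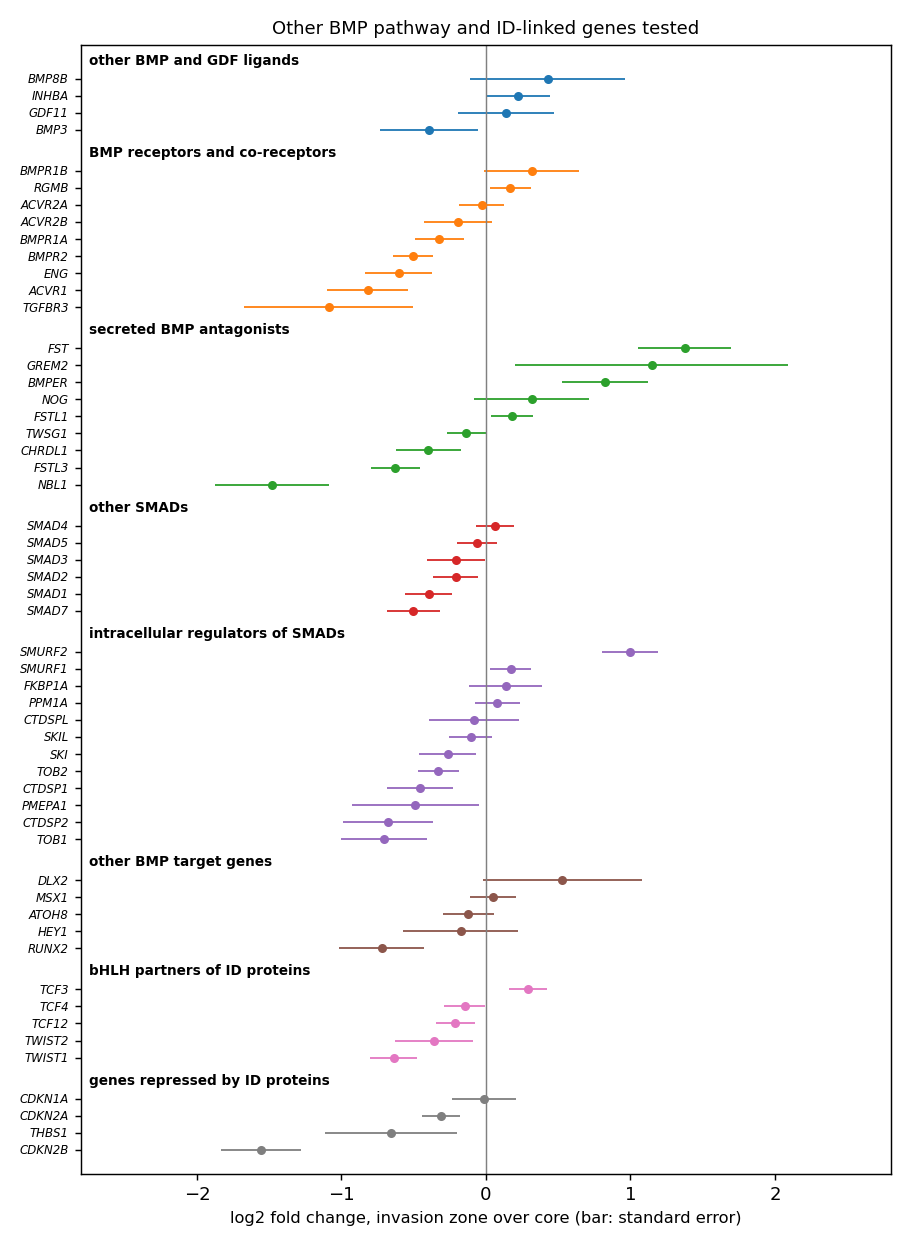
Log2 fold change, positive where the invasion zone is higher, for the 54 tested genes outside the members, in 8 role groups, with the bar as the standard error and 2 libraries per zone. FST at 1.37 and SMURF2 at 1.00 lie on the far right, NBL1 at -1.48 and CDKN2B at -1.56 on the far left, and 36 of the 54 points lie below 0.

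The genes with a pattern most like that of ID1 over the 4 libraries were found from their log2 CPM, each centred on its own mean, as the root mean square distance to ID1. ID3 ranked 3 among the 15529 genes tested, at 0.114. The other 4 of the nearest 5 were CLSPN at 0.0731, KRTAP2-3 at 0.114, E2F1 at 0.118 and CDC45 at 0.129. ID2 was farther away, at 0.787 with a rank of 2370, and BMP2 stood at 1.01 and SMAD6 at 1.36.

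Markers of proliferation and of hypoxia separated the zones together with ID1 and ID3. The 8 proliferation markers summed to 532 and 968 CPM in the core libraries and 1540 and 1780 CPM in the invasion zone libraries, and none of the 8 overlapped between the zones, each higher in the invasion zone, as were 28.1% of all genes tested. Core replicate 2 was the higher core library for this sum, as it was for ID1 and ID3. The 8 hypoxia markers summed to 1234 and 1128 CPM in the core and 490 and 365 CPM in the invasion zone, and the 7 that were tested did not overlap either, each lower in the invasion zone, as were 30.3% of all genes tested. The part of either in the ID1 and ID3 values was not tested. Of the marker lists of other cell types, the haematopoietic and epithelial lists summed to at most 0.796 CPM in any library. The endothelial list summed to 18.3 and 7.63 CPM in the core libraries against 5.76 and 0.926 CPM in the invasion zone libraries, mostly PECAM1, with KDR at 0 counts in every library. The fibroblast list summed to 95.3 and 58.2 CPM against 38.2 and 14.0 CPM, mostly PDGFRA, with DCN and LUM at 0 counts.

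**Figure D5:**
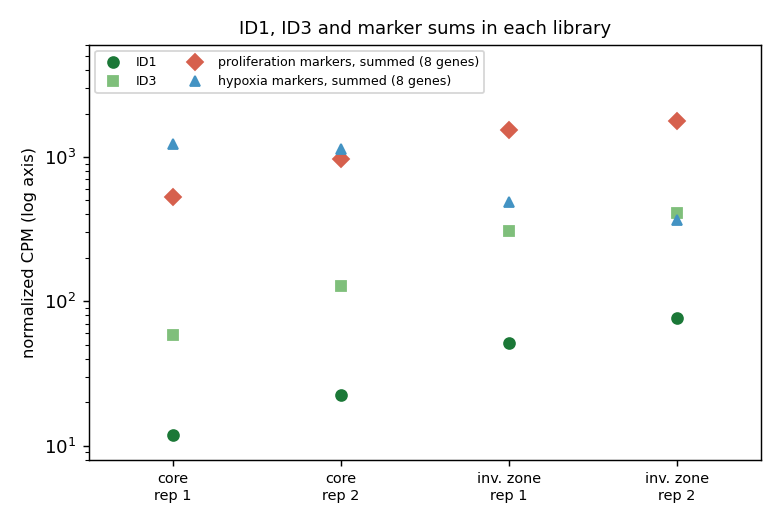
Normalized CPM on a log axis of ID1, ID3 and the summed proliferation and hypoxia markers (8 genes each) in the 4 libraries. ID1 runs from 11.9 to 76.2 CPM and the proliferation sum from 532 to 1780 CPM, with the lowest value of each in core replicate 1, whereas the hypoxia sum is lowest in the invasion zone.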

How the data were processed

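Bulk RNAseq was available for 2 core and 2 invasion zone libraries. The deposited values are raw counts. The authors removed ribosomal reads with Bowtie, filtered reads by quality, aligned them to hg38 with STAR and counted uniquely mapped reads with HTSeq-count. The sources used here give no version, annotation release or strand setting. No per-sample column was left unused (0 columns), and 2 repeated rows without counts were dropped.

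The 10 members and the 84 other genes were chosen with earlier results of these data known. In R 4.3.3, edgeR 4.0.16 kept genes that reached the CPM of 10 counts in a library of median size in 2 or more libraries, with a sum of 15 counts or more, applied TMM scaling and compared the zones by the quasi-likelihood test without a replicate term, with Benjamini-Hochberg adjustment over all genes tested. Calls needed an adjusted p under 0.05 together with a 2-fold change. Standard errors were derived from the fitted coefficient and its F statistic. The alternatives used DESeq2 1.42.0 and limma 3.58.1. The procedure was also run on simulated counts, with the same dispersion for every gene and no link between libraries of the same number. Such counts differ from these data, and nothing is concluded from that run. Replicates are separate samples by label only, so p-values measure the spread between these samples, which may be technical.

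Named genes were the members, the called genes of the wider list, the 3 genes with the highest mean CPM in each role group and the 5 genes nearest to ID1 (with 0.5 CPM added before the log). Other genes are said to be named after their values were seen. Gene positions and lengths came from GENCODE release 44, which holds 98.1% of the identifiers, and promoters from RefSeq on GRCh38.p14. Protein sequences were not used here. Intervals cover counting error only, and a floor is 3 counts. Figures were drawn with matplotlib 3.10.9.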

Additional observations from a re-analysis of the deposited data

How the results depend on the processing

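ID1 and ID3 kept a positive log2 fold change under all 11 alternatives, from 1.52 to 2.43 and from 1.50 to 2.62, with both extremes at the omission of a core library. ID2 and SMAD6 kept their sign, and of the other members tested BMP2 turned to -0.04 without invasion zone replicate 1 and SMAD9 to 0.02 without core replicate 2. The numbers of genes called higher and lower stayed at 0 with RLE scaling, at least 10 counts in every library, thinning to the smallest library, limma voom and no minimum fold change. They were 427 and 846 without a low-count filter, 354 and 548 with DESeq2, 454 and 909 at an unadjusted p and 444 and 840 with DESeq2 at an unadjusted p. Omitting each library in turn gave 13 to 632 higher and 125 to 1137 lower, on the assumption that the single library left in a zone varies as those of the other zone do. These numbers were 13 and 125 when core replicate 1 was omitted, 632 and 665 for core replicate 2, 576 and 1137 for invasion zone replicate 1 and 212 and 347 for invasion zone replicate 2. Of the wider BMP and ID genes, 1 was called higher and 3 lower without a low-count filter, 2 and 2 with DESeq2, 1 and 2 at an unadjusted p, and 2 and 3 with DESeq2 at an unadjusted p. Without the filter 73 of them were tested among 32869 genes, and under the other settings just named 54 among 15529. The shares of all genes called higher and lower were 2.76% and 4.27% with DESeq2, and 2.92% and 5.85% at an unadjusted p. With each library left out, 0 to 2 were higher and 1 to 8 lower. ID1 and ID3 were the members called under each alternative that called any gene. The cause of these changes was not tested.

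The labels share replicate numbers between the zones but do not say that a number marks a shared spheroid, although the methods describe taking the zone that belonged to each core. The column headers of the counts also carry a library number, consecutive between core and invasion zone within each replicate. What that number means is not stated. The deviations from the zone mean correlated between libraries of the same replicate number (0.64 across 15529 genes). Depth also differed between the replicate numbers, and its part in this correlation was not tested. With the replicate number as a block, 530 genes were higher (3.41% of all tested) and 1097 lower (7.06%), and 2 of the members (ID1 and ID3) were called higher. Of the 54 wider genes tested, 2 were higher (FST and SMURF2) and 3 lower (CDKN2B, NBL1 and TGFBR3).

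Of 264 log2 fold changes of the 24 wider genes named by rule, 14 changed sign. CDKN1A was 0.000916 with RLE scaling, 0.042 after thinning and 0.0015 with DESeq2. With each library left out, CDKN1A ranged from -0.29 to 0.23, THBS1 from -1.22 to 0.000993, FKBP1A from -0.17 to 0.39, SKIL from -0.20 to 0.014, GDF11 from -0.29 to 0.43, MSX1 from -0.076 to 0.16, TGFBR3, which kept its sign, from -2.20 to -0.48, SMAD3 from -0.49 to 0.021 and SMAD5 from -0.13 to 0.018. Counts were low for ID4, BMP4, BMP7 and BAMBI, which did not pass the count filter, and for SMAD9, with at most 20 counts in a library. Of these, ID4 and BMP7 had more counts in core replicate 2 than in the deeper core replicate 1.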
